A study of Mus musculus with 34 samples.

Results

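The mouse mitochondrial genome carries 37 genes in the GENCODE annotation of GRCm38, and 28 of them were among the 16576 genes listed for cultured osteosarcoma cells. The members were taken by name, as every listed gene whose symbol starts with mt-, and the rule used no measured value. They were 9 of 13 mRNAs, both rRNAs and 17 of 22 tRNAs. The annotation placed each of the 28 on the mitochondrial chromosome. The mRNAs mt-Atp6, mt-Co3, mt-Nd4l and mt-Nd4 and the tRNAs mt-Ti, mt-Tw, mt-Td, mt-Tk and mt-Tl2 were not listed and were not analysed here. All 28 members had reads in each of the 18 libraries.

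Mitochondrial DNA is transcribed from both strands into long precursor RNAs that span many genes. tRNAs lie between most of the mRNAs and rRNAs, and their excision releases the RNAs on either side. The mRNAs encode subunits of the respiratory chain and of ATP synthase, most of them carry a short poly(A) tail, and the rRNAs and tRNAs serve the ribosomes that translate them inside the organelle.

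The cells were MOSJ-Dkk1, a mouse osteochondral sarcoma line labelled with red fluorescent protein, in which a lentiviral vector expresses human Dkk-1 from the cytomegalovirus promoter. All 6 groups of 3 cultures were of this 1 line and carried the transgene. In log phase, cultures received no morpholino (NT, labelled as vehicle), 5 µM DkkMo, a vivo morpholino directed against Dkk-1, or 5 µM scrMo, its scrambled control, from 24 h after seeding by the labels and methods (a figure legend and the main text of the study give another concentration and duration), and reached logarithmic growth after 6 days with regular changes of medium. The methods of the study call scrMo scrambled, while its main text gives this control 5 mismatches. Under nutritional stress the same 3 treatments were given, and the cultures went through 48 h of confluence without a change of medium for 4 days. Cells were collected after a week of treatment. The labels do not state that the 3 samples of a group came from separate cultures, and 2 NT samples under stress share a number in their titles, so p values measure the spread between these samples, which may be technical. The human transgene lies outside the mouse annotation, so the targeted RNA could not be checked in these values. Of 9 osteoblast lineage markers, 7 were listed, with Spp1 the most abundant, and their sum was 246500 to 278420 normalised reads per library in NT in log phase, 191060 to 225690 with DkkMo and 119060 to 159210 with scrMo in log phase, and 63973 to 87083 under stress. The osteoblast markers Ibsp and Sp7 were not listed, and Alpl, at 7.02 to 24.4, and Bglap, at 2.25 to 43.9 normalised reads, added little to the sum. Of 3 chondrocyte markers, 2 were listed, with Sox9 at 4523 to 9248 and Col2a1 at 1.00 to 26.8 normalised reads. The leukocyte marker Ptprc lay between 1.04 and 20.3, the epithelial marker Krt8 between 1.11 and 22.8 normalised reads, the endothelial Pecam1 between 269 and 426, and of 2 erythroid markers 0 were listed. Of 4 leukocyte markers, 2 were listed, and Adgre1 and Itgam were not. The sum of Ptprc and Cd68, a macrophage marker, nearly all of it Cd68, was 408 to 422 normalised reads in NT, 679 to 762 with DkkMo and 851 to 1079.5 with scrMo in log phase, and 1306 to 1564.5 under stress. In log phase the 3 treatments did not overlap in the osteoblast sum or in the sum of Ptprc and Cd68. DkkMo lay between NT and scrMo in both, as for mitochondrial rRNA below. Both sums rest on few abundant markers and do not measure the number of cells of a type. The part of these marker shifts in the mitochondrial values was not tested.

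RNA was isolated on oligo(dT) beads before sequencing, and 25875666 to 44779668 reads per library fell on listed genes. The deposited values were variance-stabilised on a log2 scale, and whole reads could be recovered from them. A normalised read count is the number of reads on a gene divided by the size factor of its library. Log2 fold changes are differences of group means of the deposited values, given with their standard errors. They were tested with limma over 16562 genes with Benjamini-Hochberg (BH) adjustment, and a gene was called at an adjusted p below 0.05 with a change over 1.5-fold. This scale compresses changes of genes with few reads. In these bulk samples, a change in the number of mitochondrial genomes per cell, in transcription, in RNA stability or in the amount of RNA per cell cannot be told apart. In no comparison of 2 groups did the groups overlap in normalised read count for a called member. Calls were made from the same samples, so this describes the values and adds no separate support. Whether counting used the strand of the reads, and how reads with several matching places were treated, are not given in the sources used here.

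Of the members, 19 are encoded on the plus strand of the reference and 9 on the minus strand, namely mt-Nd6 and 8 tRNAs. Genes adjoin closely. mt-Ts1 overlaps the last 3 bases of mt-Co1 on the other strand, mt-Nd5 and mt-Nd6 overlap by 14 bases on opposite strands, and mt-Tt and mt-Tp touch end to end on opposite strands. Where strand was not used in counting, the reads of such partners cannot be told apart. The tRNAs on which the results below turn are shown here, 5′ to 3′ along the encoded RNA in DNA letters, with the anticodon in capitals, from GENCODE M21 on GRCm38. They are the pair next to the control region (mt-Tt and mt-Tp), the pair that precedes mt-Nd2 on opposite strands (mt-Tq and mt-Tm), the neighbour of mt-Co1 (mt-Ts1), and the 2 tRNAs with the highest rises under stress in NT (mt-Tc and mt-Ty).
mt-Tt (chrM:15289-15355, plus strand, tRNA for threonine): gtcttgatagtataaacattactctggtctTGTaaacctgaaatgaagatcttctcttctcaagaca
mt-Tp (chrM:15356-15422, minus strand, tRNA for proline): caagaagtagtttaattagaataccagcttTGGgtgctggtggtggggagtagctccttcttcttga
mt-Tq (chrM:3772-3842, minus strand, tRNA for glutamine): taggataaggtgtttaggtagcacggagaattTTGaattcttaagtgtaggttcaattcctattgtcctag
mt-Tm (chrM:3845-3913, plus strand, tRNA for methionine): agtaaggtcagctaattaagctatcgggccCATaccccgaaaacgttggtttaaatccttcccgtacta
mt-Ts1 (chrM:6870-6938, minus strand, tRNA for serine): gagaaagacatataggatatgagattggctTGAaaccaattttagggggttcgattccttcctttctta
mt-Tc (chrM:5192-5257, minus strand, tRNA for cysteine): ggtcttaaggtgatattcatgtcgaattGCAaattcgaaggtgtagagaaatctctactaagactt
mt-Ty (chrM:5260-5326, minus strand, tRNA for tyrosine): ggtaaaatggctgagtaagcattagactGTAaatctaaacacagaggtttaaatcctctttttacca

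Levels differed widely between members of a class. Per kilobase of gene, mt-Co1, the catalytic subunit of cytochrome c oxidase, had the highest mRNA level in NT in log phase, with a mean of 177840 normalised reads per kilobase, and mt-Nd3, a subunit of complex I, the lowest, with 386. Among tRNAs, mt-Ts1 was highest, with 1912900 normalised reads per kilobase, and mt-Tf, the tRNA for phenylalanine, was lowest, with 64.8. Both rRNAs lay between, with 11054 for mt-Rnr1, the rRNA of the small ribosomal subunit, and 9011 for mt-Rnr2, that of the large subunit. mt-Co1 therefore stood 16.1 times above mt-Rnr1 per length in these oligo(dT)-selected libraries. Fragments of longer precursors that overlap a tRNA can be counted on it, so that a tRNA value need not be that of the mature tRNA. Near-identical nuclear copies, described below, also make the levels of mt-Co1, mt-Nd3 and mt-Ts1 uncertain, and so their ranks.

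The share of mitochondrial reads set the scrMo cultures under stress apart from all others. Mitochondrial genes took 2.30 to 2.47% of the reads on listed genes in NT in log phase, 2.35 to 2.47% with scrMo and 2.45 to 2.68% with DkkMo. Under stress the share was 1.54 to 1.67% in NT, 5.30 to 5.80% with scrMo and 1.74 to 1.88% with DkkMo. The scrMo cultures under stress did not overlap with any other group, and the NT cultures under stress were the lowest.

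rRNA varied most among the 3 classes. Its share of reads was 0.0706, 0.0820 and 0.0805% in the 3 NT libraries in log phase, 0.268, 0.390 and 0.282% with scrMo, and 0.125, 0.129 and 0.134% with DkkMo. Under stress it was 0.0757, 0.0790 and 0.0698% in NT, 1.95, 1.84 and 1.65% with scrMo, and 0.163, 0.173 and 0.147% with DkkMo. In both conditions the order was scrMo above DkkMo above NT, without overlap between the groups, and within scrMo in log phase the library at 0.390% stood above the other two. The mean rRNA share with scrMo was 4.04 times that of NT in log phase and 24.2 times that of NT under stress.

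mRNA and tRNA shares moved less. Mean mRNA shares in log phase were 1.67% in NT, 1.48% with scrMo and 1.77% with DkkMo, and mean tRNA shares were 0.629%, 0.604% and 0.640%. Under stress, mRNA took 1.05%, 2.08% and 1.19% and tRNA 0.483%, 1.66% and 0.437% in the same order. Within the mitochondrial reads, mRNA made up 70.3% in NT in log phase and 37.5% with scrMo under stress, while rRNA made up 3.26% and 32.6% in these groups and tRNA 26.4% and 29.9%. These 2 groups differ in both treatment and growth condition, and single genes weighed heavily in the class shares. Among the mRNAs, mt-Co1 alone took 36.2% and 4.75% of the mitochondrial reads. Among the tRNAs, mt-Ts1 took 17.4% and 1.87%, while mt-Tp took 5.54% and 19.6%.

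**Figure D1:**
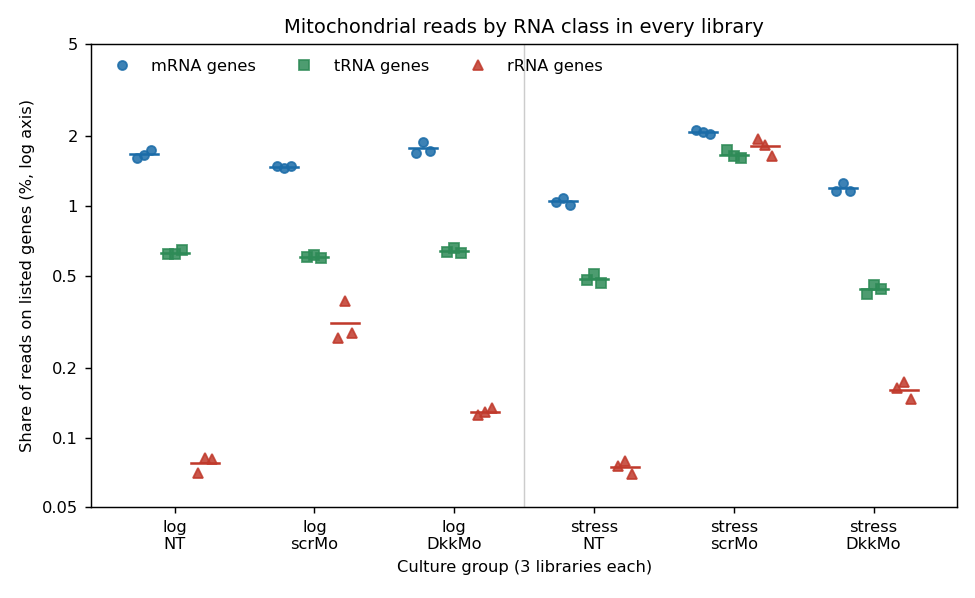
Share of the reads on listed genes (%, log axis) that fell on the 9 mRNA, 17 tRNA and 2 rRNA genes, with 1 point per library and a bar at each group mean. With scrMo under stress, the rRNA points at 1.65 to 1.95% reach the level of the tRNA points and lie below the mRNA points. In NT the rRNA points lie below 0.1% in both conditions.

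The first comparison asked what the control morpholino did on its own. With scrMo in log phase, 10 members were called higher than in NT, against 0.592% of all genes tested, and 1 was called lower, against 1.85%. The 10 were both rRNAs, 6 of 17 tRNAs and 2 of 9 mRNAs (mt-Nd2 and mt-Nd3), and the fall was that of mt-Co1. The median log2 fold change was 0.46 over the 28 members and -0.00 over all genes tested, with class medians of 1.94 for rRNA, 0.53 for tRNA and -0.01 for mRNA. As ratios of mean normalised counts, the class medians were 3.99, 2.01 and 0.99. mt-Rnr2 had 12887, 14824 and 15054 normalised reads in NT and 58097, 82079 and 59879 with scrMo. All scrMo values lay above all NT values, and the log2 fold change was 2.19 ± 0.11 (limma BH-adjusted p = 1.19e-10).

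mt-Rnr1 showed the same order, from 9796, 11304 and 10569.9 in NT to 32134, 41671 and 30732 normalised reads with scrMo. Its log2 fold change was 1.69 ± 0.10 (limma BH-adjusted p = 1.2e-09). mt-Tt rose from 86.1, 120.3 and 112 to 779.8, 998 and 815 normalised reads, with 1.76 ± 0.07 on the log2 scale (limma BH-adjusted p = 3.08e-11), and in plain ratio of means it was 8.14 times higher. mt-Co1 had 271166, 270081 and 283039.9 normalised reads in NT and 185611, 166065 and 197841 with scrMo, a log2 fold change of -0.59 ± 0.08 (limma BH-adjusted p = 3.77e-05). The groups did not overlap, but its change lay close to the 1.5-fold limit and it was no longer called without log NT replicate 3 (-0.57), without log scrMo replicate 2 (-0.52) or with the libraries centred on the median of the other genes (-0.54). mt-Nd6, the complex I subunit encoded on the minus strand, was not called, with -0.29 ± 0.09 (limma BH-adjusted p = 0.02).

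Under nutritional stress the scrMo cultures departed further from NT. Here 21 members were called higher, against 1.90% of all genes tested, and 2 lower, against 2.54%. The members that rose were both rRNAs, 11 of 17 tRNAs and 8 of 9 mRNAs, and those that fell were mt-Co1 and mt-Ts1. The median log2 fold change was 1.38 over the members and -0.00 over all genes tested, with 4.42 for rRNA, 1.45 for mRNA and 1.07 for tRNA. These medians depend on the scale. The member median was 2.08 for log2(normalised count + 1), and the median ratio of mean normalised counts was 22.0 for rRNA, 3.53 for mRNA and 4.56 for tRNA, so that mRNA lay above tRNA only on the compressed scale.

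mt-Rnr2 had 16081, 17142 and 15150.1 normalised reads in NT and 399541, 376089 and 338838 with scrMo, and its log2 fold change of 4.50 ± 0.11 was the highest of all genes tested (limma BH-adjusted p = 2.17e-16). mt-Rnr1 went from 10696, 11442 and 9707 to 241484, 223218 and 200965, or 4.35 ± 0.10 on the log2 scale (limma BH-adjusted p = 1.93e-16). The lowest scrMo value was 17.6 times the highest NT value for mt-Rnr1 and 19.8 times for mt-Rnr2. mt-Tt rose from 118, 119 and 114 to 7335, 7154 and 6712 normalised reads, with a log2 fold change of 4.40 ± 0.07 (limma BH-adjusted p = 1.48e-18). Its neighbour on the other strand, mt-Tp, was far more abundant and went from 19289, 21649 and 19138 to 382750.4, 342855 and 343614, with 4.13 ± 0.09 (limma BH-adjusted p = 1.16e-16). The least abundant member, mt-Tf, went from 11.4, 3.11 and 3.79 to 523, 466 and 495 normalised reads, a ratio of means of 81.3 that the compressed scale gave as a log2 fold change of 2.09 ± 0.07 (limma BH-adjusted p = 1.08e-13). mt-Nd6 rose as well, from 6891, 7913 and 6649 to 25812, 24816 and 25181, with 1.78 ± 0.09 (limma BH-adjusted p = 2.83e-11).

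mt-Co1 moved the other way. It had 249749, 262664 and 245605 normalised reads in NT and 84925, 86447 and 86986 with scrMo, a log2 fold change of -1.55 ± 0.08 (limma BH-adjusted p = 8.49e-11). mt-Ts1, the tRNA for serine that abuts its end, fell from 128781, 138211 and 125528 to 33129.8, 34312 and 34321, or -1.94 ± 0.08 (limma BH-adjusted p = 9.46e-13). Both were the most abundant members of their class per length in NT, and both were lower in each scrMo culture under stress than in any culture of the other groups. Both also lie in or beside a stretch with a near-identical nuclear copy, described with the nuclear copies, and their levels are uncertain to that extent. The 5 members that were not called were mt-Ta, mt-Tn and mt-Tc, which lie in a row on the minus strand between mt-Nd2 and mt-Co1, mt-Ts2 and mt-Te, with log2 fold changes from 0.15 to 0.50.

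**Figure D2:**
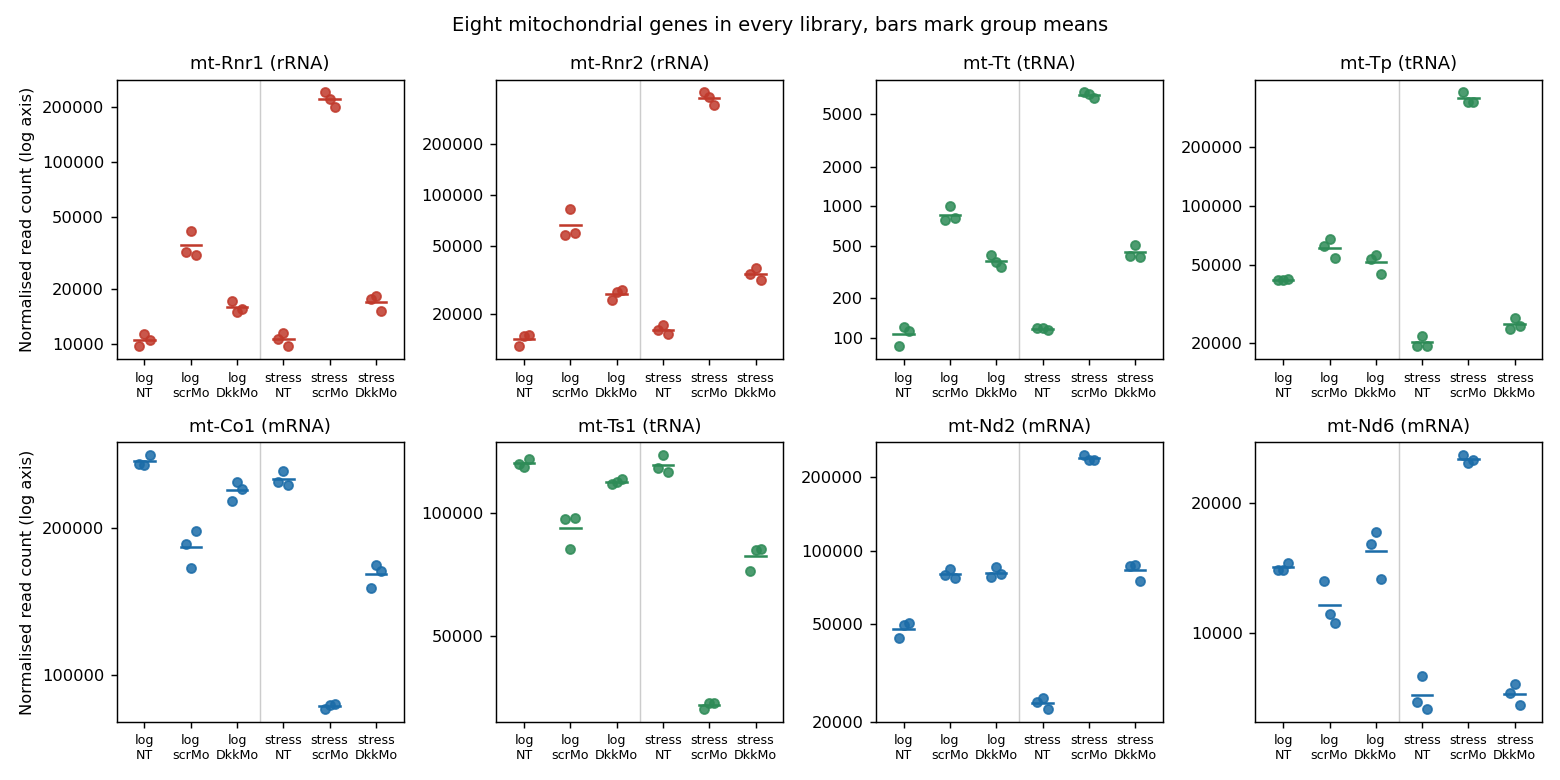
Normalised read counts (log axis, a scale of its own in each panel) of mt-Rnr1, mt-Rnr2, mt-Tt, mt-Tp, mt-Co1, mt-Ts1, mt-Nd2 and mt-Nd6 in the 18 libraries, with 1 point per library, a bar at each group mean and colours by RNA class. The 3 scrMo libraries under stress are the highest in 6 of the panels and the lowest for mt-Co1 and mt-Ts1.

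Next, DkkMo was set against NT, and these comparisons share their NT samples with those above. In log phase, 8 members were called higher with DkkMo, against 0.513% of all genes tested, and 0 lower, against 0.314%. At an unadjusted p below 0.05, 4 members had a negative log2 fold change, but the share of all genes at this limit was not counted. The 8 were mt-Rnr2, mt-Nd2, mt-Nd3 and 5 tRNAs, with a median over the members of 0.32, or 0.55 both for log2(normalised count + 1) and with voom. mt-Tt had 427, 377 and 347 normalised reads with DkkMo, above all NT values, and a log2 fold change of 0.94 ± 0.07 (limma BH-adjusted p = 4.71e-07). mt-Tm, the tRNA for methionine that precedes mt-Nd2, had 49.7, 60.5 and 69.7 in NT and 204, 304 and 293 with DkkMo, or 0.91 ± 0.08 (limma BH-adjusted p = 1.3e-06). mt-Rnr2 reached 24174, 26824 and 27577 normalised reads, with 0.87 ± 0.11 (limma BH-adjusted p = 4.58e-05). The values of mt-Rnr1, 17133, 15061 and 15612, also lay above those of NT, but its log2 fold change of 0.58 ± 0.10 was just under the fold limit (limma BH-adjusted p = 0.00122), and it was called without log NT replicate 2 (0.63), without log DkkMo replicate 2 (0.62) or 3 (0.60), and on 2 other scales. mt-Nd6 overlapped between the groups, with 0.12 ± 0.09 (limma BH-adjusted p = 0.467).

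Under stress, 10 members were called higher with DkkMo than in NT, against 1.12% of all genes tested, and 5 lower, against 1.54%. The members that rose lie, with 2 exceptions (mt-Atp8 and mt-Tt), in an unbroken run of listed genes from mt-Rnr1 to mt-Nd2, and the 5 that fell are the listed genes from mt-Ta to mt-Ts1 other than mt-Ty. mt-Tm rose from 44.5, 41.5 and 46.5 to 859, 809 and 683 normalised reads, a log2 fold change of 2.06 ± 0.08 (limma BH-adjusted p = 1.25e-11). mt-Nd2, a complex I subunit, went from 23961, 25046 and 22498 to 86883, 87938 and 75559, or 1.79 ± 0.08 (limma BH-adjusted p = 2.73e-11). mt-Tq, the tRNA for glutamine on the other side of mt-Tm, went from 9789, 10164 and 9220.3 to 25457, 26771 and 23236, or 1.34 ± 0.07 (limma BH-adjusted p = 2.96e-10). In each of these 3 genes the groups did not overlap. The rises were not particular to DkkMo. scrMo against NT under stress gave larger log2 fold changes, of 3.545 for mt-Tm, 3.314 for mt-Nd2 and 3.578 for mt-Tq.

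The rRNAs rose less under stress with DkkMo. mt-Rnr2 had 34427, 37200.1 and 31705 normalised reads, with 1.08 ± 0.11 on the log2 scale (limma BH-adjusted p = 5.22e-07), and mt-Rnr1 had 17653, 18431 and 15251, with 0.67 ± 0.10 (limma BH-adjusted p = 5.38e-05). mt-Nd6 was at 7255, 7615 and 6787 and overlapped with NT, with 0.01 ± 0.09 (limma BH-adjusted p = 0.904). The falls were moderate. mt-Ts1 had 72049.7, 81216 and 81419 normalised reads, with -0.74 ± 0.08 (limma BH-adjusted p = 7.21e-07), mt-Tn, the tRNA for asparagine, had -0.67 ± 0.07 (limma BH-adjusted p = 4.27e-07), and mt-Co1 had 150838, 168058 and 163654 normalised reads, with -0.65 ± 0.08 (limma BH-adjusted p = 6.77e-06). Relative to the reads on all other genes, the 5 falls lay under the fold limit, with -0.58 for mt-Ts1, -0.58 for mt-Tn and -0.49 for mt-Co1, and the count was 14 higher and 0 lower. mt-Tn was also not called without stress NT replicate 2 (-0.58).

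**Figure D3:**
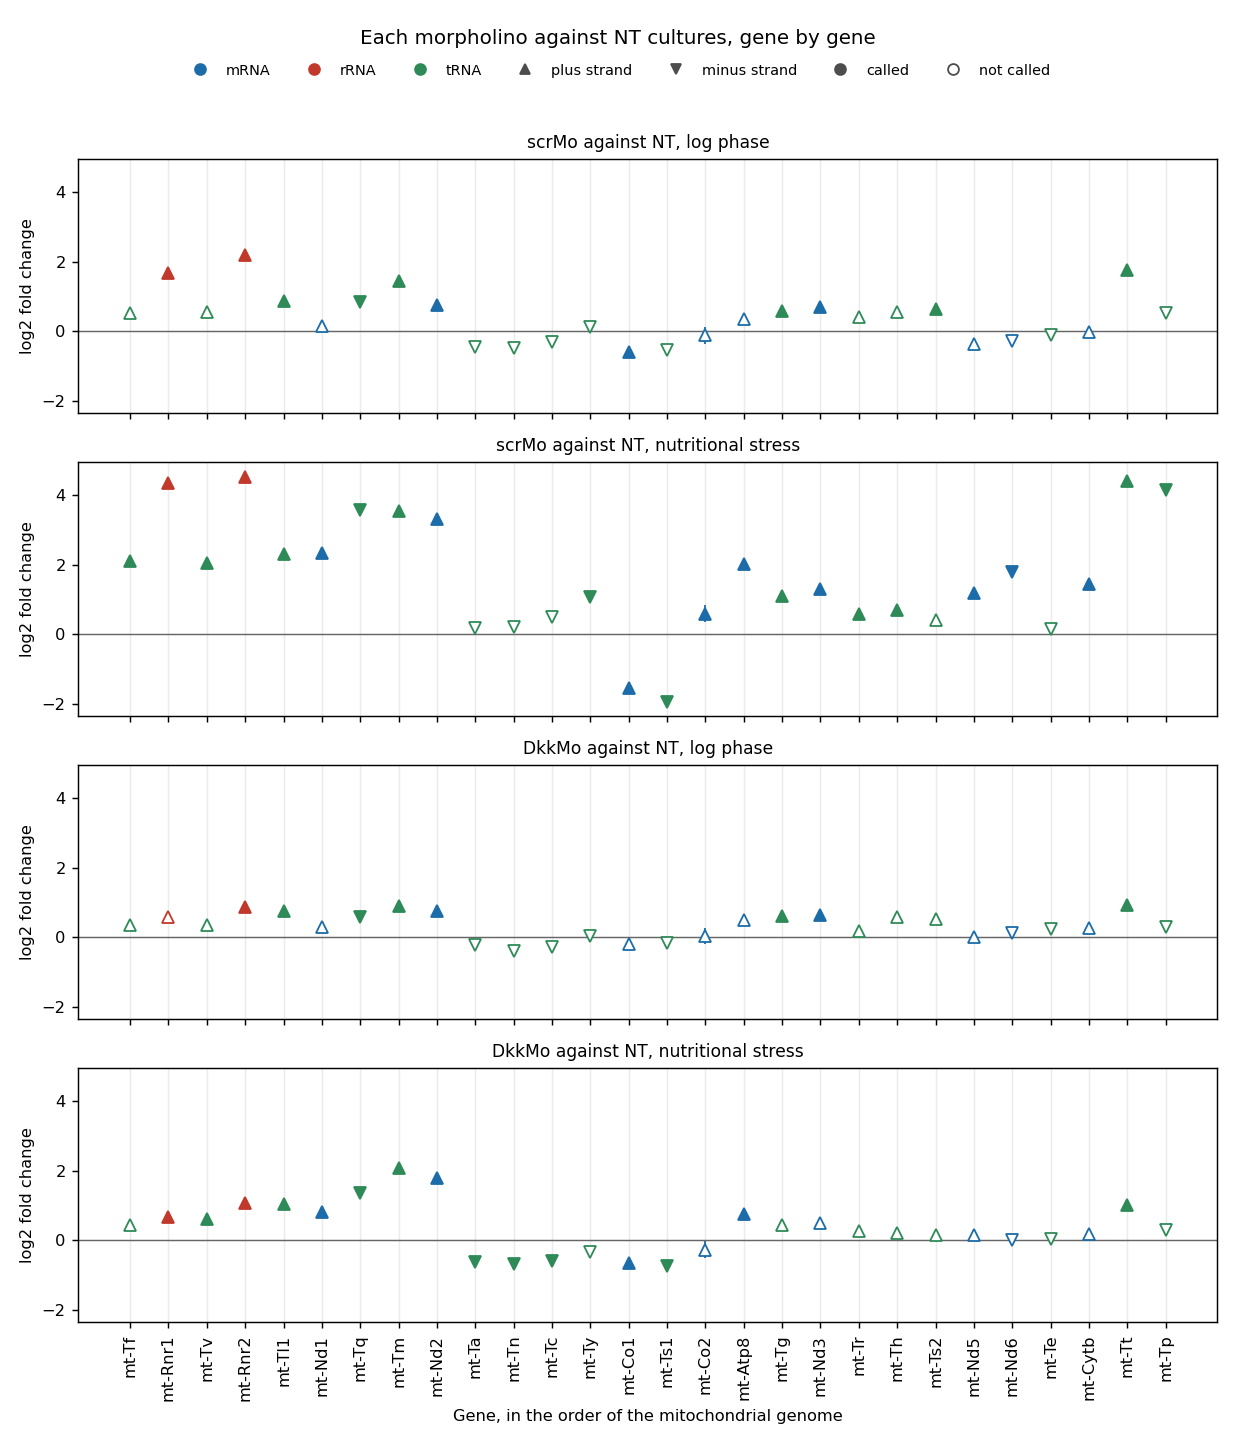
Log2 fold change of each listed mitochondrial gene (vertical axis, with standard error) for scrMo against NT and DkkMo against NT in log phase and under stress, with genes in genome order, colours by RNA class, triangles pointing up for the plus strand and down for the minus strand, and filled symbols for called genes. With scrMo under stress the rRNAs, mt-Tt and mt-Tp lie above 4 and mt-Co1 and mt-Ts1 below -1.5, and with DkkMo under stress all values lie between -0.74 and 2.06.

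DkkMo was then compared with scrMo, the contrast between the morpholinos, which shares samples with all comparisons above. In log phase, 3 members were called lower with DkkMo, against 0.308% of all genes tested, and 0 higher, against 1.66%. At an unadjusted p below 0.05, 7 members had a positive log2 fold change, but the share of all genes at this limit was not counted. The 3 were mt-Rnr2, with -1.32 ± 0.11 (limma BH-adjusted p = 3.7e-07), mt-Rnr1, with -1.10 ± 0.10 (limma BH-adjusted p = 9.6e-07), and mt-Tt, with -0.82 ± 0.07 (limma BH-adjusted p = 6.5e-07). All 3 had DkkMo values between those of NT and scrMo, as printed above. The median over the members was 0.02, and that over the mRNAs 0.16. mt-Nd6 had 13174, 11046 and 10548 normalised reads with scrMo and 16031, 17139 and 13321 with DkkMo, and was under the fold limit at 0.41 ± 0.09 (limma BH-adjusted p = 0.00208).

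Under stress, 22 members were called lower with DkkMo than with scrMo, against 0.489% of all genes tested, and 2 higher, against 0.513%. They made up 22 of the 81 genes called lower across the whole table. Falls covered both rRNAs, 12 of 17 tRNAs and 8 of 9 mRNAs, and the rises were those of mt-Ts1 and mt-Co1. The median was -1.25 over the members and 0.00 over all genes tested. mt-Tp had the largest fall of all genes tested, with 23407, 26843 and 24454 normalised reads with DkkMo against 382750.4, 342855 and 343614 with scrMo, or -3.82 ± 0.09 (limma BH-adjusted p = 7.36e-16). The log2 fold changes of mt-Rnr1, -3.67 ± 0.10 (limma BH-adjusted p = 8.59e-15), and mt-Rnr2, -3.42 ± 0.11 (limma BH-adjusted p = 5.95e-14), followed. mt-Nd6 was lower, with -1.77 ± 0.09 (limma BH-adjusted p = 7.33e-11), whereas mt-Ts1 was higher by 1.20 ± 0.08 (limma BH-adjusted p = 3.25e-09) and mt-Co1 by 0.90 ± 0.08 (limma BH-adjusted p = 3.55e-07). Against NT, the same DkkMo cultures had higher rRNA and lower mt-Co1 and mt-Ts1, so the sign of these genes depended on which control was used.

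Interaction terms tested whether each contrast differed between the growth conditions. The difference between DkkMo and scrMo changed with stress in 23 members. In 22 it was more negative under stress, against 2.83% of all genes tested, and in 1, mt-Ts1, more positive, against 0.869%. The difference between scrMo and NT changed with stress in 22 members, more positive in 20, against 5.55% of all genes tested, and more negative in mt-Ts1 and mt-Co1, against 5.37%. The count of negative terms in this contrast was near that share of all genes. mt-Tp had the largest interaction in both, -3.58 ± 0.13 for DkkMo against scrMo (limma BH-adjusted p = 2.93e-12) and 3.60 ± 0.13 for scrMo against NT (limma BH-adjusted p = 1.72e-12). The 2 interactions share the scrMo samples.

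Nutritional stress itself was compared with log phase within each treatment. In NT, 8 members were called lower under stress, against 9.90% of all genes tested, and 4 higher, against 8.22%. The falls were those of 6 of 9 mRNAs (mt-Nd1, mt-Nd2, mt-Atp8, mt-Nd5, mt-Nd6 and mt-Cytb) with mt-Tq and mt-Tp. mt-Cytb, the mitochondrial subunit of complex III, went from 59595, 60808 and 60859 to 24413, 26536 and 23762 normalised reads, a log2 fold change of -1.27 ± 0.09 (limma BH-adjusted p = 2.48e-10). mt-Nd1, of complex I, went from 62394, 69261 and 71637 to 30194, 32119.5 and 28700.4, or -1.15 ± 0.08 (limma BH-adjusted p = 1.47e-10). mt-Tp went from 41967, 41982 and 42357 to 19289, 21649 and 19138, or -1.06 ± 0.09 (limma BH-adjusted p = 6.34e-09). In each, the conditions did not overlap. mt-Nd6 also fell, with -0.96 ± 0.09 (limma BH-adjusted p = 1.14e-08).

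The 4 rises in NT were those of mt-Ta, mt-Tn, mt-Tc and mt-Ty, the whole cluster of minus-strand tRNAs between mt-Nd2 and mt-Co1. mt-Ty, the tRNA for tyrosine, had 692, 685 and 805 normalised reads in log phase and 1792, 1882 and 1627 under stress, or 1.04 ± 0.07 (limma BH-adjusted p = 1.99e-10). mt-Tc, the tRNA for cysteine, had 1294, 1272 and 1388 and 2604, 2943 and 2382, or 0.87 ± 0.06 (limma BH-adjusted p = 4.18e-10), and mt-Tn rose by 0.71 ± 0.07 (limma BH-adjusted p = 1.93e-08). Neither rRNA was called. mt-Rnr1 overlapped between the conditions, with 0.01 ± 0.10 (limma BH-adjusted p = 0.958), and mt-Rnr2 was at 0.18 ± 0.11 (limma BH-adjusted p = 0.167). Relative to the reads on all other genes, where the median of all genes shifted by -0.12, the count was 11 lower and 3 higher.

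With scrMo the direction was mostly upward. Under stress 17 members were called higher than in log phase, against 4.38% of all genes tested, and 2 lower, against 6.28%. The count of lower calls was near that share of all genes. Rises were called in both rRNAs, 11 of 17 tRNAs and 4 of 9 mRNAs, and the falls were again those of mt-Ts1, with -1.42 ± 0.08 (limma BH-adjusted p = 2.56e-11), and mt-Co1, with -1.08 ± 0.08 (limma BH-adjusted p = 2.39e-09). mt-Tt rose by 2.70 ± 0.07 (limma BH-adjusted p = 1.27e-14), mt-Rnr1 by 2.67 ± 0.10 (limma BH-adjusted p = 4.26e-13) and mt-Tp by 2.54 ± 0.09 (limma BH-adjusted p = 2.52e-13). mt-Rnr2 rose by 2.49 ± 0.11 (limma BH-adjusted p = 1.96e-12), and mt-Nd6, which had fallen in NT, rose by 1.11 ± 0.09 (limma BH-adjusted p = 3.46e-09).

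With DkkMo, 10 members were called lower under stress than in log phase, against 10.2% of all genes tested, and 2 higher, against 6.24%. The count of higher calls was near that share of all genes. The falls were those of 5 mRNAs and 5 tRNAs. mt-Cytb, with 72538, 82821 and 65442 normalised reads in log phase and 25297, 30703 and 29172 under stress, had the largest fall of the members, with -1.36 ± 0.09 (limma BH-adjusted p = 1.12e-10). mt-Nd6 had -1.07 ± 0.09 (limma BH-adjusted p = 3.2e-09) and mt-Tp -1.04 ± 0.09 (limma BH-adjusted p = 1.01e-08). The 2 rises were those of mt-Tm, with 1.03 ± 0.08 (limma BH-adjusted p = 2.05e-09), and mt-Ty, with 0.64 ± 0.07 (limma BH-adjusted p = 1.87e-07). As in NT, neither rRNA was called, with 0.10 ± 0.10 for mt-Rnr1 (limma BH-adjusted p = 0.422) and 0.39 ± 0.11 for mt-Rnr2 (limma BH-adjusted p = 0.00416). With libraries centred on the median of the other genes, where the median of all genes shifted by 0.17, the count was 6 lower and 4 higher.

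**Figure D4:**
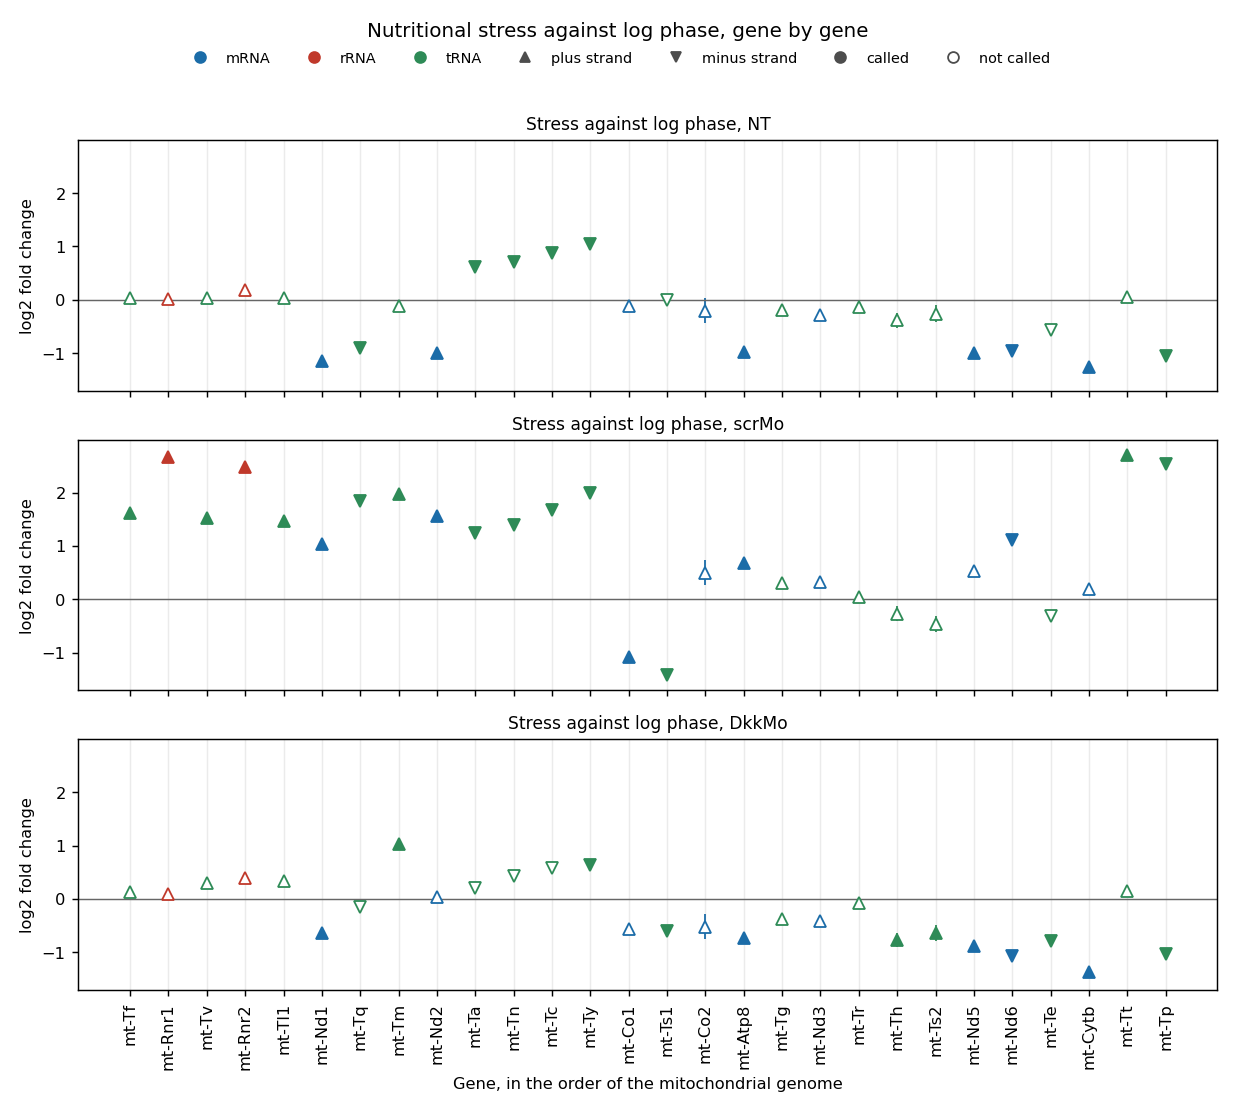
Log2 fold change of each listed mitochondrial gene (vertical axis, with standard error) for stress against log phase in NT, scrMo and DkkMo, with genes in genome order and symbols by RNA class (colour), strand (up for plus, down for minus) and call (filled). In NT and DkkMo the mRNA symbols lie at 0.03 or below, and with scrMo all mRNA symbols but that of mt-Co1 lie above 0.

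Sorted by strand, the members did not move as 2 blocks. In NT, stress had a median log2 fold change of -0.12 over the 9 plus-strand tRNAs, none of them called, and of 0.30 over the 8 minus-strand tRNAs, with 4 called higher and 2 lower. As ratios of mean normalised counts these medians were 0.736 and 1.32. Strand and abundance cannot be told apart here, since in NT in log phase the plus-strand tRNAs lay at 64.8 to 15981 and the minus-strand tRNAs at 10855 to 1912900 normalised reads per kilobase, and the deposited scale compresses changes at low counts. With scrMo in log phase, all 9 plus-strand tRNAs were positive (0.40 to 1.76, 5 called), while the minus-strand tRNAs ranged from -0.53 to 0.84 with a median of -0.21 and 1 called. With scrMo the ranges of the 2 sets overlapped in both conditions. Under stress they were 0.42 to 4.40 on the plus strand and -1.94 to 4.13 on the minus strand. Members of 1 strand also lay far apart. On the minus strand alone, scrMo under stress gave 3.58 for mt-Tq, 0.19 for mt-Ta, -1.94 for mt-Ts1, 0.15 for mt-Te and 4.13 for mt-Tp.

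Ratios of reads within a library need no scaling between libraries. The ratio of mt-Ts1 to mt-Co1, neighbours on opposite strands, stayed within 0.390 to 0.526 in all 18 libraries, a 1.35-fold range, while the normalised counts of the libraries spanned 3.33-fold for mt-Co1 and 4.17-fold for mt-Ts1. That of mt-Rnr2 to mt-Rnr1 ran from 1.31 to 2.08. By contrast, the ratio of mt-Co1 to mt-Nd2 was 5.44 to 6.18 in NT in log phase, 1.98 to 2.55 with scrMo and 2.91 to 3.01 with DkkMo, and under stress 10.4 to 10.9 in NT, 0.344 to 0.369 with scrMo and 1.74 to 2.17 with DkkMo. In both conditions NT was highest and scrMo lowest, without overlap. The ratio of mt-Tp to mt-Cytb was 0.680 to 1.14 outside scrMo under stress and 5.15 to 5.26 there. mt-Nd6 to mt-Nd5 was 0.339 to 0.488 elsewhere and 0.608 to 0.622 with scrMo under stress. These ratios show unequal change and not which of the 2 genes moved.

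**Figure D5:**
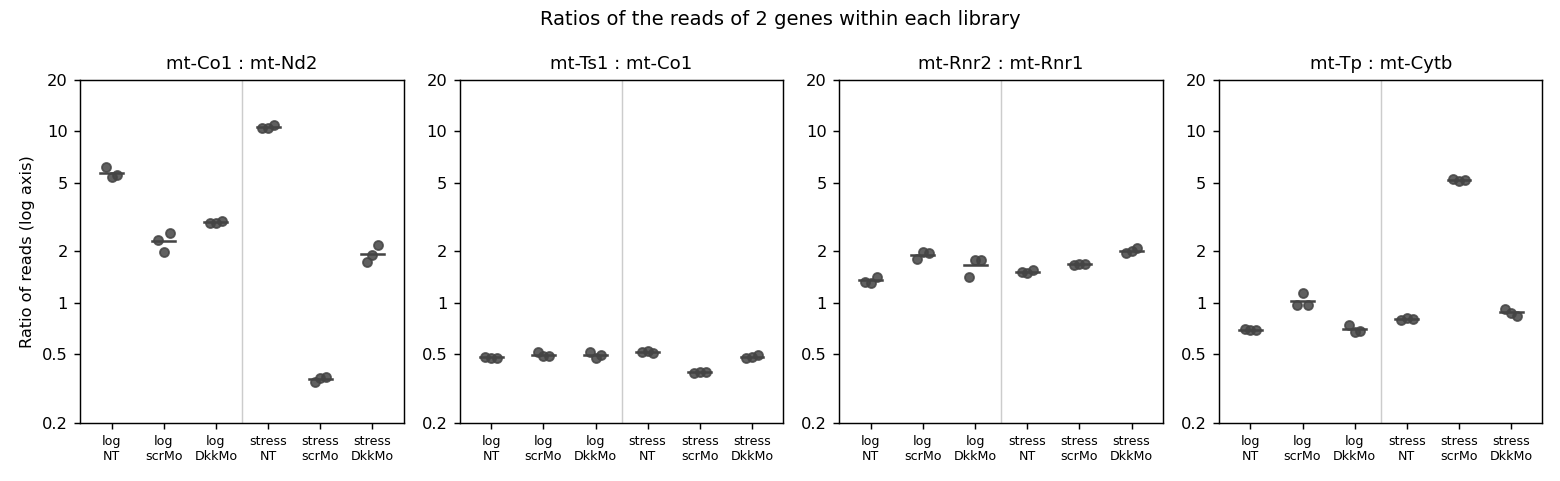
Ratios of the reads on mt-Co1 to mt-Nd2, mt-Ts1 to mt-Co1, mt-Rnr2 to mt-Rnr1 and mt-Tp to mt-Cytb (log axis, the same in each panel) in the 18 libraries, with a bar at each group mean. The ratio of mt-Co1 to mt-Nd2 spans 31.7-fold over the libraries, against 1.35-fold for mt-Ts1 to mt-Co1.

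Near-identical copies of mitochondrial DNA in the nuclear genome make some levels uncertain. Of 12 annotated copies looked for, 10 were listed, and 9 of these matched a mitochondrial gene. Gm28661 on chromosome 1 is identical to mt-Co2 over 681 bases, and Gm28438 matches mt-Nd3 at 99.7%. The copies on chromosome 1 follow each other and match parts of the mitochondrial genome from mt-Nd4 to mt-Co1, where Gm29216 matches 483 bases of mt-Co1 at 99.8% and Gm10925 matches 43 bases of mt-Atp8. Reads there could be split or dropped, so the levels of mt-Co1, mt-Co2, mt-Atp8 and mt-Nd3 are uncertain, as are those of mt-Ts1, mt-Tg and mt-Tr, which lie between matched genes. With scrMo against NT under stress, 5 of the 10 listed copies were called higher, against 1.90% of all genes tested, and 2 lower, against 2.54%. Among the 5 were Gm10222 (matching mt-Nd4l) with 1.44 ± 0.20, Gm28661 with 1.35 ± 0.10 and Gm13339 (matching mt-Nd2 at 96.7%) with 1.18 ± 0.06. Gm10222 had 1062, 366 and 311 normalised reads with scrMo under stress, and without stress scrMo replicate 1 the mean was 338. The 2 called lower were Gm29216 with -1.29 ± 0.08 and Gm13340 with -0.61 ± 0.07, which both match mt-Co1. These directions are those of the matched gene where it was listed. With DkkMo against scrMo under stress, 4 copies were called lower, against 0.489% of all genes tested, and 1, Gm29216, higher, against 0.513%. The list median was -0.40. Whether these reads came from nuclear or mitochondrial RNA was not tested.

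Lists of nuclear genes for mitochondrial RNA were counted in the same comparisons. For scrMo against NT under stress, of 21 genes tested for mitochondrial transcription and replication 0 were called, of 24 for RNA processing and modification 1, and of 17 for RNA stability and decay 0, with list medians of 0.04, 0.00 and -0.06. With 1.90% of all genes tested called higher and 2.54% lower, 1 call among 62 genes is near the background. Among these 3 lists, 32 genes had an unadjusted p below 0.05, but the share of all genes at this limit was not counted. The 1 was Nsun3, which methylates the anticodon of mt-Tm, with 88.1 to 101 normalised reads in NT and 223 to 282 with scrMo and a log2 fold change of 0.69 ± 0.06 (limma BH-adjusted p = 2.44e-08). Between treatments these 3 lists held 2 other calls, both of Mterf4 in log phase. Mterf4, which takes part in mitoribosome assembly, was lower with scrMo, at 2097 to 2238 in NT and 748 to 988 with scrMo, or -1.14 ± 0.10 (limma BH-adjusted p = 9.8e-08), and it was higher with DkkMo than with scrMo, by 0.72 ± 0.10 (limma BH-adjusted p = 3.98e-05). The interaction of scrMo against NT with stress was called positive for Mterf4 (1.20 ± 0.14) and Nsun3 (0.74 ± 0.08) and negative for Esrra (-0.63 ± 0.08), Trmt10c (-0.72 ± 0.09) and Pus1 (-0.66 ± 0.11), and that of DkkMo against scrMo was called negative for Mterf4 (-0.61 ± 0.14). Against log phase, stress raised Ppargc1a, the coactivator of mitochondrial biogenesis, in all 3 treatments, with 79.7 to 101 normalised reads in log phase and 876 to 959 under stress in NT, 61.2 to 83.2 and 577 to 635 with scrMo, and 49.9 to 73.2 and 539.7 to 607 with DkkMo. Its log2 fold changes were 1.89 ± 0.06, 1.57 ± 0.06 and 1.59 ± 0.06 (limma BH-adjusted p = 1.13e-14, 2.96e-13 and 1.3e-13). With scrMo and DkkMo it was the 1 call in the 3 lists, where 4.38% and 6.24% of all genes tested were called higher. For NT, 3 of 21, 1 of 24 and 1 of 17 genes of the 3 lists were called higher, against 8.22% of all genes tested. Lower calls numbered 1, 1 and 0, against 9.90%. Over the 3 lists together, higher calls were near the share of all genes and lower calls were below it. The genes named next are single values and not a result about the lists. In NT, Polg, the mitochondrial DNA polymerase, and Esrra rose as well, by 0.81 ± 0.05 (limma BH-adjusted p = 5.26e-11) and 0.70 ± 0.05 (limma BH-adjusted p = 1.05e-09), and Trmt10c, a subunit of the enzyme that cuts the 5′ end of mitochondrial tRNAs, by 0.79 ± 0.06 (limma BH-adjusted p = 1.96e-09) and Pde12, which removes poly(A) tails in mitochondria, by 0.62 ± 0.06 (limma BH-adjusted p = 4.18e-08), while Nsun3 and Mterf4 fell, with -0.83 ± 0.06 and -0.88 ± 0.10 (limma BH-adjusted p = 2.17e-10 and 1.8e-07).

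RNAs that mostly lack a poly(A) tail were listed for 7 of 21 genes. With scrMo against NT under stress, 2 were called higher, the histone RNAs H1f2, with 1455 to 1637 normalised reads in NT and 3702 to 4277 with scrMo (1.26 ± 0.10, limma BH-adjusted p = 1.46e-08), and H2bc4 (0.74 ± 0.08, limma BH-adjusted p = 9.76e-07). H1f2 was also lower with DkkMo than with scrMo under stress, with -1.33 ± 0.10 (limma BH-adjusted p = 2.27e-08), and higher with scrMo than in NT in log phase, by 0.63 ± 0.10 (limma BH-adjusted p = 0.000123). The list medians were 0.10, -0.08 and 0.14 in these 3 comparisons, and 1.90%, 0.489% and 0.592% of all genes tested were called in the same direction. Rn7sk, with 191 to 255 in NT under stress and 98.1 to 195 with scrMo, and Rmrp, with 69 to 88.2 and 61.4 to 89.1, were not called there. Against log phase, stress raised Rn7sk, Rmrp and H1f2 in NT, by 1.09 ± 0.09, 0.64 ± 0.05 and 0.62 ± 0.10 (limma BH-adjusted p = 2.38e-09, 3.85e-09 and 1.88e-05), and Rn7sk and Rmrp with DkkMo, by 0.66 ± 0.09 and 0.69 ± 0.05 (limma BH-adjusted p = 2.3e-06 and 1.67e-09). With scrMo it raised H1f2, from a mean of 1548 to 4044 normalised reads, by 1.25 ± 0.10 (limma BH-adjusted p = 4.24e-09). The list medians for stress were 0.04 in NT, 0.11 with DkkMo and 0.38 with scrMo. Of all genes tested, stress raised 8.22% in NT, 6.24% with DkkMo and 4.38% with scrMo by the same limits. Interactions with stress were called for H1f2 (0.63 ± 0.14) and H2bc4 (0.74 ± 0.12) in scrMo against NT and for H1f2 (-1.05 ± 0.14) in DkkMo against scrMo. The part of such RNAs, or of the oligo(dT) selection, in the rRNA and tRNA values was not tested.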

How the data were processed

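RNA-seq was done on 18 cultures in 6 groups of 3. Per the labels and the study's methods, poly(A) RNA was isolated on oligo(dT) beads, reads were aligned to GRCm38 with HISAT2 2.1.0 and SAMtools 1.9 and counted with featureCounts (Subread 2.0.0), and the authors transformed the counts with DESeq2. The deposited values are variance-stabilised log2 values. Strand setting and multimapping reads are not given in the sources used here. A table of tumour samples was not used here.

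The transform was inverted: a value of 7.1981 stood for 0 reads, and 100% of recovered values under 1000 reads were whole within 0.02. Reads divided by the size factor are called normalised read counts. Depth was 25875666 to 44779668 reads per library, whose precision covers counting error only. Of 16576 genes, 14 whose values spanned more than 6 within a group were set aside.

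Group means were compared with limma 3.58.1 (R 4.3.3) on the deposited log2 values of all 18 cultures, with 1 mean per group, a variance trend and Benjamini-Hochberg adjustment over 16562 genes. Genes were called at an adjusted p below 0.05 and over 1.5-fold. The script was tested on simulated data. An exact permutation test of 3 against 3 cannot go below p = 0.1, so none was used for single values. Alternatives were log2(normalised count + 1), voom on the recovered reads, filters on low values, other scalings, only the groups compared, the replicate number as a block, and leaving out each culture.

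The members were taken by symbol alone, but this set of genes and all gene lists were chosen for study with earlier results of these data known. Named in every comparison were mt-Rnr1, mt-Rnr2 and mt-Nd6, with the 3 called members of the largest rise and fall, the highest and lowest gene of each class, and called genes of the nuclear lists (at most 3 in each direction). mt-Nd2, mt-Tq, mt-Tm, mt-Ty, mt-Tc, mt-Te and mt-Ta were named elsewhere for their position, after their values were seen. Sequences, strand and coordinates were taken from GENCODE M21 transcripts on GRCm38. Replicate numbers were taken to pair cultures where the deviations of every same-numbered pair correlated with r above 0.1, which held for no 2 groups (-0.05 to 0.62 for log-phase scrMo and DkkMo, and 0.04 to 0.35 for DkkMo in log phase and under stress). Replicate libraries differed by more than sampling noise, so each counted as 1 sample. Plots were drawn with matplotlib 3.10.9 in Python 3.11.15.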

Additional observations from a re-analysis of the deposited data

Results flagged for a closer look

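The contrast between DkkMo and scrMo differed between the growth conditions in 23 members by the interaction term of limma. The interactions, as the log2 fold change under stress minus that in log phase, were -3.58 for mt-Tp, -2.57 for mt-Rnr1, -2.55 for mt-Tt, -2.18 for mt-Nd6, -2.10 for mt-Rnr2 and 0.82 for mt-Ts1. The contrast between scrMo and NT differed between the conditions in 22 members. Here the interactions were 3.60 for mt-Tp, 2.74 for mt-Tq, 2.66 for mt-Rnr1, 2.31 for mt-Rnr2, 2.07 for mt-Nd6, -1.41 for mt-Ts1 and -0.96 for mt-Co1. Both sets of interactions use the same scrMo cultures.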

How the results depend on the processing

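Of 162 counts of called members under the alternatives, 157 stayed within 1.5 times the reported count. The exceptions were DkkMo against scrMo in log phase, with 5 called on the log2(normalised count + 1) scale and 6 with voom in place of 3, DkkMo against NT in log phase, with 13 called with voom and 5 among genes above the median level in place of 8, and scrMo against NT in log phase, with 7 among genes above the median level in place of 11. The reported 3 were among the 5 and the 6, the reported 8 were among the 13, and the 5 and the 7 were among the reported 8 and 11. In the filtered set fewer genes were tested. The cause of the other shifts was not tested. Leaving out each culture in turn gave 3 to 4 called members for DkkMo against scrMo in log phase and 22 to 25 under stress, 10 to 13 for scrMo against NT in log phase and 21 to 23 under stress, 7 to 9 for DkkMo against NT in log phase and 12 to 15 under stress, 11 to 13, 19 to 20 and 12 to 13 for stress against log phase in NT, scrMo and DkkMo, and 22 to 23 and 20 to 23 for the interactions. Of 4448 values of single members, 58 lost and 123 gained a call, and 0 called values changed sign. The replicate numbers share only a name. With the replicate block, the counts were 3, 24, 11, 8, 19, 12 and 23 in the 7 comparisons that allowed it, and 0 calls changed. Comparisons with NT under stress had no block, since 2 of its cultures share a number. Scaling to the reads on all other genes shifted the median of all genes by 0.13 for scrMo and 0.12 for DkkMo against NT under stress and by 0.16 in the interaction of scrMo with stress, and centring shifted it by 0.16 for stress against log phase in NT. For genes with few reads, such as mt-Tf with 64.8 normalised reads per kilobase in NT in log phase, depth limits the size of the fold change.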
